A study of Sus scrofa with 16 samples.

Results

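Parthenogenetic porcine embryonic stem cells, called PA cells here, were compared at day 16 and day 0 of a protocol that directs stem cells towards dopaminergic neurons of the ventral midbrain. Both groups came from 1 parthenogenetic embryonic stem cell line, whose embryo carried no paternal genome, and each group held 2 replicate libraries of poly-A RNA. Day 16 PA cells had been given SB431542, Noggin, SHH and CHIR99021 from day 0 to day 9, when these were replaced by FGF8. At day 11 the cells had been replated in medium with FGF8, BDNF and ascorbic acid, so SHH and CHIR99021 were no longer supplied at day 16. Day 0 PA cells were the stem cells at the start of the protocol, grown with FGF2, IWR-1 and WH-4-023 from a line derived on mouse feeder cells. The comparison took in every gene of the table: 18528 of 28232 genes were counted highly enough to be tested, in 4 of the 16 libraries of the series. The step between the same days in IVF cells, a line from an in vitro fertilised embryo with 2 libraries per day, is set beside it in places. The difference of the steps was tested gene by gene, and not for the medians of chromosomes.

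Pluripotent stem cells are held in their state by a small set of transcription factors around POU5F1, and they grow as an epithelium. In the embryo the neural plate loses those factors, exchanges E-cadherin for N-cadherin and is then divided into regions by secreted signals. SHH from the floor plate sets ventral fate, WNT and FGF8 at the boundary of midbrain and hindbrain set the position along the axis, and floor plate cells of the midbrain give rise to the dopaminergic neurons. SB431542 and Noggin block the NODAL and BMP signals that would lead cells away from neural fate, and CHIR99021 switches on the WNT response inside the cell.

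Levels are CPM, the counts of a gene scaled to library size with TMM factors, given as replicates 1 and 2. Log2 fold changes are day 16 over day 0, with their standard error (SE) after ± where given, from an edgeR quasi-likelihood fit, and a lone number in parentheses after a gene is its log2 fold change. Where a group had no count, the fold is a lower bound against 3 counts per library, and where it had 1 to 3 counts, the ratio is given with its counting interval. A gene rose or fell when it changed at least 2-fold with a Benjamini-Hochberg adjusted p below 0.05. The 4 libraries held 45736827 to 52165867 counts, and replicates correlated at r = 0.997 for day 16 and r = 0.998 for day 0 (Pearson over genes, log2(CPM+1)), against 0.902 to 0.907 between the days. Mitochondrial transcripts took 5.42% and 5.98% of the counts at day 16 and 5.76% and 5.37% at day 0. The labels do not say whether replicates were separate cultures, so p-values measure the spread between libraries. In bulk RNA, fewer cells of a type and less RNA per cell cannot be told apart.

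Day 16 PA cells had lost most RNA of pluripotency and epithelial genes and held RNA of neural progenitor, floor plate, forebrain and neuronal genes. In all 3331 genes rose (18.0% of the genes tested) and 2674 fell (14.4%). Counts of list members below are to be read against these shares. Scaling by total counts shifted the median of all genes by 0.083 log2 units and gave 3636 genes that rose and 2414 that fell, so that 60.1% of the calls were rises, against 55.5% with TMM. A group of 32 genes, 26 of them with a symbol, had at least 5 CPM in both day 16 libraries and no count at all at day 0. The opposite held for 27 genes, 23 of them with a symbol.

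**Figure D1:**
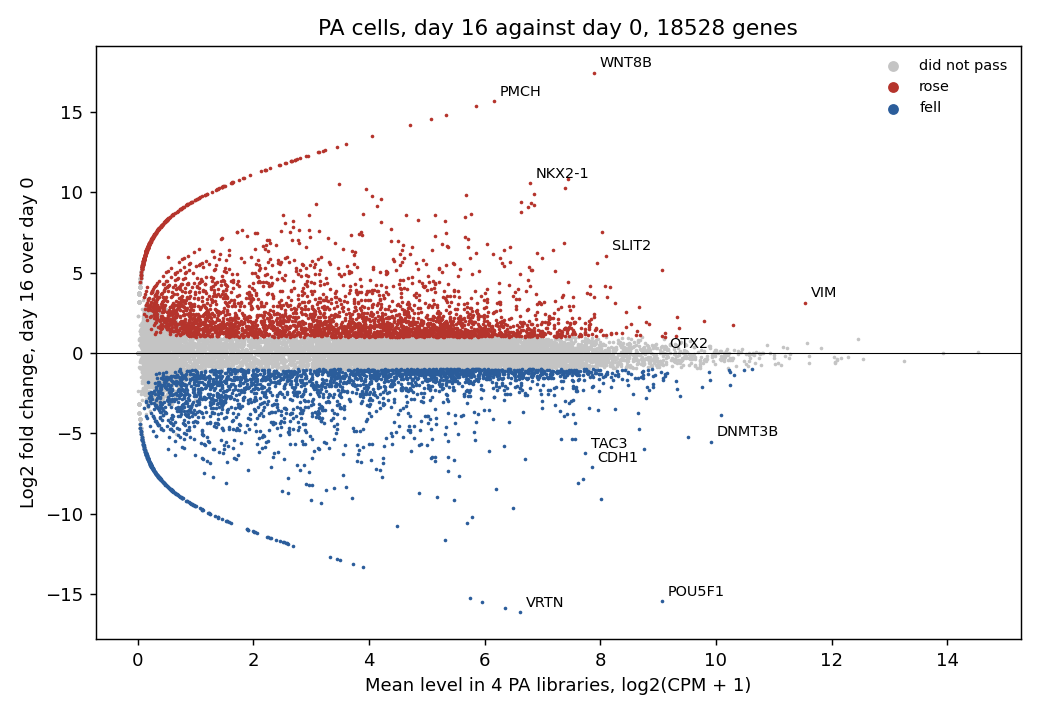
Log2 fold change of each tested gene (vertical axis, day 16 over day 0) against its mean level in the 4 PA libraries (horizontal axis, log2 of CPM + 1). Points in red rose (3331 genes), points in blue fell (2674 genes) and grey points did not pass. The lone points at the upper and lower edges, among them WNT8B and VRTN, are genes without a count on 1 of the 2 days, whose height is set by the prior count that the fit adds.

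By fitted log2 fold change, the 15 named genes with the largest rise were all without a count at day 0. The fitted size of such a rise is set by the prior count. Their rank above genes counted on both days is therefore not a measured one. WNT8B, a WNT ligand of the dorsal and posterior forebrain, led them with 450.4 and 498 CPM at day 16 (at least 7187-fold higher, adjusted p = 2.84e-09). PMCH, the precursor of melanin-concentrating hormone in lateral hypothalamic neurons, had 146 and 137 CPM (at least 2148-fold higher), and BARHL2, a homeobox factor of the diencephalon, had 30.9 and 31.7 CPM (at least 475-fold higher). FAM181A (49.2 and 51.9 CPM) and SPHKAP (17.8 and 21.6 CPM) are expressed in nervous tissue. The set also held the neuronal zinc finger factor ST18 (12.3 and 13.8 CPM) and the adhesion molecules SLITRK3 (16.6 and 17 CPM), DSCAM (11.7 and 10.8 CPM) and VCAM1 (15.7 and 15.1 CPM). WNT1, the signal of the boundary between midbrain and hindbrain, reached 11.4 and 10.9 CPM (at least 169-fold higher), and NKX2-2, a factor of the ventral neural tube, reached 11.4 and 11.6 CPM (at least 174-fold higher). MAGEL2, SEMA3A and TH also belong to the 15 and are described with their groups.

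At the other end stood genes of the stem cell. VRTN, whose variants are known in pigs for the number of vertebrae, had no count in either day 16 library, against 183 and 204 CPM at day 0 (at least 2958-fold lower, adjusted p = 1.89e-09). PRDM14 (155 and 166 CPM at day 0, at least 2457-fold lower at day 16), ZFP42 (122 and 123 CPM, at least 1869-fold lower) and ZSCAN10 (103 and 108 CPM, at least 1613-fold lower) are transcription factors of pluripotency, and each was likewise absent at day 16. Less familiar members of the group without a count at day 16 were TNFSF11, the ligand of RANK (24.4 and 24.6 CPM at day 0), ATP6V0D2, a proton pump subunit (27.9 and 27.6 CPM at day 0), and HPN, a serine protease of the cell surface (17.1 and 19.1 CPM at day 0). The set also held PROX2 (10.0 and 11.7 CPM at day 0), the carboxylesterase CES1 (9.94 and 9.66 CPM) and the zinc transporter SLC30A2 (8.55 and 10.3 CPM). GABRP, a GABA receptor subunit of epithelia, fell to 0.0454 and 0 CPM at day 16, against 76.5 and 78.6 CPM at day 0 (3568 times lower, 95% counting interval 987 to 29469.7).

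Promoters are shown for 2 genes that had no count at day 0 and 2 that had none or nearly none at day 16. They were chosen after their values were seen, TH for dopamine, PMCH for the hypothalamus and POU5F1 and ZFP42 for pluripotency. Each window runs from 250 bases before to 50 bases after the annotated gene start in Sscrofa11.1 (RefSeq), written on the strand of the gene. Capitals mark, on either strand, the TATA box letters TATAAA, the letters CCAAT, the E-box letters CAGCTG, the homeodomain letters TAATTA and the octamer letters ATGCAAA.

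TH, chr2:1506131-1506430, minus strand: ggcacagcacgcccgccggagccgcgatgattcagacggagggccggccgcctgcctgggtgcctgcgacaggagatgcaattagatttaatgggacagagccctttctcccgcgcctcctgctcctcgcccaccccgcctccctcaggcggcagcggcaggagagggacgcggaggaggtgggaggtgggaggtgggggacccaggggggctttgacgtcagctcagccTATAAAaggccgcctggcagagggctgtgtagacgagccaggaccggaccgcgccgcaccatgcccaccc
PMCH, chr5:82018665-82018964, plus strand: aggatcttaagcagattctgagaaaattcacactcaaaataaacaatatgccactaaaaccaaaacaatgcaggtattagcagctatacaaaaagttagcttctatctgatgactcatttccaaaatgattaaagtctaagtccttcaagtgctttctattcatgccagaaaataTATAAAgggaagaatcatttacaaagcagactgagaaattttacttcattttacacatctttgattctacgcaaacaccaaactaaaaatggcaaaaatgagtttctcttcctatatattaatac
POU5F1, chr7:23570642-23570941, minus strand: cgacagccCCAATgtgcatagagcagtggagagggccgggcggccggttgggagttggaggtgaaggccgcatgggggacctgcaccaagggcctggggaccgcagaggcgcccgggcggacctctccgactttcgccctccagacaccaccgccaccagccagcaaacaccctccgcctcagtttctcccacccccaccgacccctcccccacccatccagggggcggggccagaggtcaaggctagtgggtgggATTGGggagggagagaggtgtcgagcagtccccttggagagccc
ZFP42, chr17:7408978-7409277, minus strand: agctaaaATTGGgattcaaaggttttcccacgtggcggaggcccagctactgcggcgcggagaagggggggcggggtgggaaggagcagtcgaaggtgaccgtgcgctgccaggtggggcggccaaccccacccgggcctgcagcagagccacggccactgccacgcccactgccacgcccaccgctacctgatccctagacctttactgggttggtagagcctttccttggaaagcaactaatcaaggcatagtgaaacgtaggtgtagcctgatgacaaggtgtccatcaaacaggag

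The windows of TH and PMCH each hold TATAAA, 20 and 75 bases before the gene start, and those of POU5F1 and ZFP42 hold only CCAAT or its complement. TATAAA was found in 18.0% of the 100 windows of genes with the largest rise and in 14.0% of those with the largest fall, against 8.63% of 18490 windows of all genes tested. TAATTA, a core letter run of homeodomain sites, was in 7.00%, 1.00% and 3.49% of the same sets. CCAAT was in 33.0%, 32.0% and 35.2%, CAGCTG in 11.0%, 18.0% and 17%, and ATGCAAA in 6.00%, 4.00% and 3.59%. Windows of the 100 genes with the largest rise had fewer CpG pairs, with a median observed to expected ratio of 0.424, against 0.613 for the largest fall and 0.705 for all genes tested. Over all called genes the sets stood closer together: the median ratio was 0.649 for all that rose and 0.627 for all that fell, and TATAAA was in 9.91% and 9.70% of their windows. The annotated start can lie away from the start used in these cells, and a match is only a run of letters.

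Pluripotency genes fell. Of 28 members listed, 24 were tested, in 25 entries since 2 loci bear the name NANOG, of which 21 fell and 4 did not pass, with a median log2 fold change of -5.51 (-4.56 with members at 0 set to their bound), against 0 over all genes tested. POU5F1, the central factor of the network, had 0 and 0.0418 CPM at day 16, against 1042 and 1105 CPM at day 0 (49396 times lower, 95% counting interval 13674 to 407888). LIN28A, an RNA-binding protein that blocks let-7 maturation, had 8.63 and 6.70 CPM at day 16, against 311 and 306 CPM at day 0 (log2 fold change -5.33 ± 0.27, adjusted p = 1.24e-09). Its paralogue LIN28B differed by -0.074 and did not pass. SALL4 (log2 fold change -3.46 ± 0.21) and TRIM71 (log2 fold change -3.41 ± 0.094) fell by less than the core factors, and at day 16 SALL4 kept 54.1 and 47.1 CPM and TRIM71 39.3 and 37.2 CPM. NANOG was low already at day 0: one of its loci fell to 0.0681 and 0.0835 CPM, against 1.99 and 1.73 CPM (log2 fold change -4.56 ± 0.68), and the other fell to a mean of 0.582 CPM, against 12.3 CPM. TDGF1, a NODAL co-receptor, and FOXD3 had no count at day 16, against 19.5 and 21.6 CPM of TDGF1 and 8.66 and 9.45 CPM of FOXD3 at day 0. SOX2, which stem cells share with neural progenitors, had 159 and 140 CPM at day 16, against 217 and 220.1 CPM at day 0 and did not pass (log2 fold change -0.55 ± 0.16, adjusted p = 0.00814).

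Of the genes of the primed epiblast, the stage just before gastrulation, 6 of 11 tested fell and the rest did not pass. ZIC2, a zinc finger factor of the epiblast and neural plate, had 1.54 and 1.32 CPM at day 16, against 395 and 383 CPM at day 0 (log2 fold change -8.09 ± 0.23, adjusted p = 8.61e-12), so that the days stood far apart. POU3F1 (log2 fold change -5.05 ± 0.18), SALL2 (log2 fold change -2.11 ± 0.16), LEFTY2 (log2 fold change -4.45 ± 0.40) and CER1 (log2 fold change -6.00 ± 0.72) fell too. OTX2, a factor of both epiblast and fore- and midbrain, stayed among the most highly expressed regulators on both days, with 564 and 523 CPM at day 16, against 554 and 543 CPM at day 0 (log2 fold change -0.014 ± 0.21, adjusted p = 0.979).

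**Figure D2:**
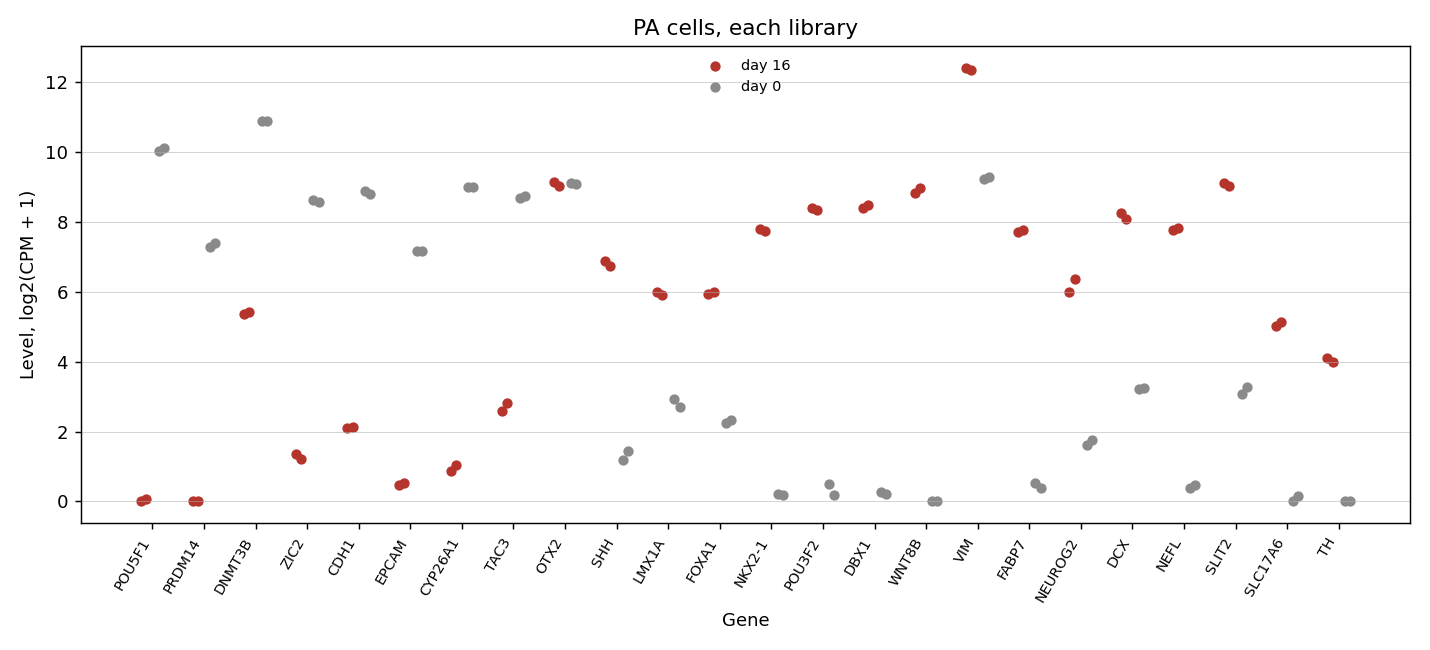
Level of 24 genes in each PA library (vertical axis, log2 of CPM + 1), with the day 16 libraries in red at the left of each gene and the day 0 libraries in grey at the right; each point is 1 library. Stem cell and epithelial genes stand at the left, regional factors in the middle and neuronal genes at the right; OTX2 is level between the days, and the days do not overlap for the other 23 genes.

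Changes in the enzymes that write and read DNA methylation were uneven. DNMT3B, the de novo methyltransferase of early embryos, had 40.7 and 42.2 CPM at day 16, against 1895 and 1886 CPM at day 0 (log2 fold change -5.51 ± 0.18, adjusted p = 1.92e-11). TRIM28 (log2 fold change -1.22 ± 0.10), a co-repressor, and HELLS (log2 fold change -1.20 ± 0.22), a chromatin remodeller, fell also, and TET2 rose (log2 fold change 1.17 ± 0.11). DNMT1, which copies methylation at replication, and DNMT3A did not pass (-0.63 and -0.93). In this list 5 of 14 members tested fell (3 without day 0 replicate 1) and 1 rose.

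The epithelial programme was the only list of those examined in which every tested member fell: 20 of 20 fell, with a median log2 fold change of -5.54 against 0 over all genes tested. CDH1, which encodes E-cadherin, had 3.29 and 3.40 CPM at day 16, against 469 and 449 CPM at day 0 (log2 fold change -7.10 ± 0.17, adjusted p = 2.78e-12). EPCAM (log2 fold change -8.44 ± 0.26), the tight junction protein CLDN6 (log2 fold change -7.84 ± 0.32), the protease ST14 (log2 fold change -9.64 ± 0.49) and the transcription factor GRHL2 (log2 fold change -7.21 ± 0.57) fell by similar amounts. ESRP1, a splicing regulator of epithelia, had 0 and 0.13 CPM at day 16, against 103 and 99.7 CPM at day 0. Its paralogue ESRP2 had 0 and 0.313 CPM at day 16, against 35.3 and 35.2 CPM at day 0. The keratin KRT8 was the member that kept most RNA, with 237 and 216 CPM at day 16, against 1018 and 1100.5 CPM at day 0 (log2 fold change -2.22 ± 0.17).

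Cadherins and adhesion molecules of neural cells moved in the other direction, with 13 of 20 tested members higher at day 16, 3 lower and 4 not passing. CDH2, which encodes N-cadherin, was already high at day 0 and had 893 and 826 CPM at day 16, against 427 and 394 CPM at day 0 (log2 fold change 1.07 ± 0.13, adjusted p = 6.69e-06). The larger changes were in the type II cadherins CDH7 (log2 fold change 6.60 ± 0.35), CDH8 (log2 fold change 6.57 ± 0.26) and CDH6 (log2 fold change 4.32 ± 0.23). CDH8 for example had 106 and 96.2 CPM at day 16, against 0.983 and 1.14 CPM at day 0. NCAM1 (log2 fold change 2.26 ± 0.11), NRCAM (log2 fold change 3.57 ± 0.12) and CNTN2 (log2 fold change 5.12 ± 0.21), adhesion molecules of neurons and axons, rose as well, while L1CAM fell (log2 fold change -1.42 ± 0.11) and CDH11 did not pass (log2 fold change -0.38 ± 0.18).

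Neural progenitor genes were abundant at day 16. Of 19 members tested 14 rose and 5 did not pass, with a median of 3.08. VIM, an intermediate filament of progenitors, gained most TPM of the named genes, with 3766 and 3566 TPM at day 16, against 366 and 369 TPM at day 0 (log2 fold change 3.13 ± 0.16, adjusted p = 1.29e-09). FABP7, a fatty acid binding protein of radial glia, had 209.6 and 216 CPM at day 16, against 0.457 and 0.317 CPM at day 0 (log2 fold change 9.10 ± 0.28). PTPRZ1 (log2 fold change 5.60 ± 0.19), RFX4 (log2 fold change 6.68 ± 0.23) and NR2E1 (log2 fold change 7.49 ± 0.21), all of progenitors in the ventricular zone, rose by similar amounts. NES, the intermediate filament nestin, rose by less, with 529 and 533 CPM at day 16, against 252 and 245 CPM at day 0 (log2 fold change 1.10 ± 0.15). SOX1 and SOX3 rose (log2 fold change 4.94 ± 0.45 and log2 fold change 3.64 ± 0.27) but remained low, SOX1 at 8.09 and 6.28 CPM and SOX3 at 8.11 and 6.78 CPM. Of the SOX family, SOX5 (log2 fold change 3.64 ± 0.22), SOX6 (log2 fold change 6.15 ± 0.34) and SOX9 (log2 fold change 1.79 ± 0.16) rose and SOX13 (log2 fold change -2.55 ± 0.15) and SOX15 (log2 fold change -4.01 ± 0.38) fell. MSI1, an RNA-binding protein of progenitors, was high on both days and did not pass (0.33).

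Proneural genes rose with those of progenitors. Among proneural factors, which commit progenitors to become neurons, 14 of 18 tested members rose and 4 did not pass, with a median of 3.96. NEUROG2, which drives ventral midbrain progenitors to neurons, had 62.9 and 81.2 CPM at day 16, against 2.08 and 2.37 CPM at day 0 (log2 fold change 5.02 ± 0.35, adjusted p = 2.43e-08). NEUROD4 (415 times higher, 95% counting interval 142 to 2016), NEUROD1 (log2 fold change 7.24 ± 0.54) and NHLH1 (log2 fold change 3.51 ± 0.30), which follow in newborn neurons, rose too. In the Notch pathway, by which neighbouring cells hold each other back from differentiating, 10 of 19 tested members rose and 9 did not pass. The ligand JAG1 had 289 and 248 CPM at day 16, against 29.5 and 27.0 CPM at day 0 (log2 fold change 3.25 ± 0.17). DLL1 rose (log2 fold change 1.97 ± 0.15). The target HES4 had 93.3 and 103 CPM at day 16, against 0.594 and 0.740 CPM at day 0 (log2 fold change 7.19 ± 0.22). The receptors NOTCH2 (-0.25) and NOTCH3 (0.32) did not pass.

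**Figure D3:**
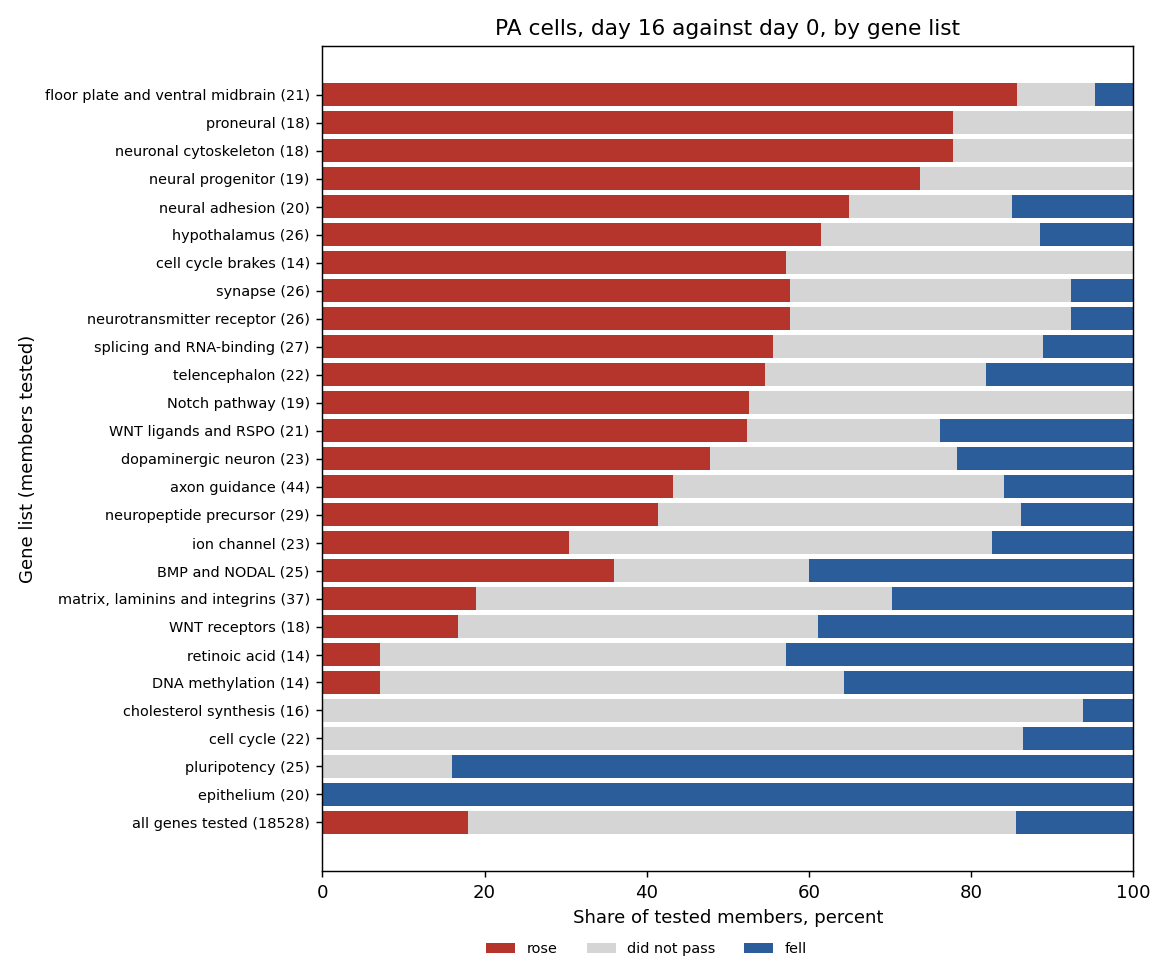
Share of the tested members of 26 gene lists that rose (red), fell (blue) or did not pass (grey) between day 16 and day 0 in PA cells, in percent (horizontal axis), with the number tested beside each name; the lowest bar gives all 18528 genes, of which 18.0% rose and 14.4% fell. The floor plate, proneural, neuronal cytoskeleton and neural progenitor lists hold mostly rises, the pluripotency list mostly falls and the epithelium list only falls, while the cell cycle and cholesterol lists are mostly grey.

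Genes of the ventral midline rose. Of 21 tested genes of the floor plate and ventral midbrain 18 rose, 1 fell and 2 did not pass, with a median of 5.30. SHH, the ventralising signal itself, had 117 and 107 CPM at day 16, against 1.28 and 1.71 CPM at day 0 (log2 fold change 6.21 ± 0.21, adjusted p = 3.31e-11). SPON1, a secreted floor plate protein, had 1073 and 1016 CPM at day 16, against 28.5 and 29.0 CPM at day 0 (log2 fold change 5.18 ± 0.29). NTN1, which guides axons to the midline, had 171 and 157 CPM at day 16, against 13.8 and 13.8 CPM at day 0 (log2 fold change 3.57 ± 0.23). The determinants LMX1A (log2 fold change 3.32 ± 0.23) and LMX1B (log2 fold change 2.81 ± 0.24), the protease CORIN (log2 fold change 5.44 ± 0.32), FERD3L (log2 fold change 9.55 ± 0.43) and SIM1 (log2 fold change 6.59 ± 0.30) rose as well. FOXA1 had 59.8 and 62.9 CPM at day 16, against 3.75 and 3.99 CPM at day 0 (log2 fold change 3.98 ± 0.15). Its partner FOXA2 went the other way, with 15.5 and 12.5 CPM at day 16, against 27.2 and 29.2 CPM at day 0 (log2 fold change -1.01 ± 0.31, adjusted p = 0.0117). That call was narrow: FOXA2 no longer passed with scaling by total counts (log2 fold change -0.92, adjusted p = 0.0161) or without day 0 replicate 2 (log2 fold change -0.96, adjusted p = 0.051) or day 16 replicate 2 (log2 fold change -0.87, adjusted p = 0.093). EN1, the midbrain factor stained in the study, was at or near the detection limit on both days, with 0.227 and 0 CPM at day 16, against 0 and 0.127 CPM at day 0.

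Most hypothalamic and telencephalic genes rose, and those of the diencephalon and eye were divided. Of 26 hypothalamic genes tested 16 rose and 3 fell, and of 22 telencephalic genes 12 rose and 4 fell (2 without day 16 replicate 1 or day 0 replicate 2). Of 19 diencephalon and eye genes 5 rose, 6 fell and 8 did not pass, with a median of -0.0039. NKX2-1, a determinant of the ventral forebrain, had 221 and 215 CPM at day 16, against 0.160 and 0.127 CPM at day 0 (log2 fold change 10.55 ± 0.27, adjusted p = 8.61e-12). By TPM, which corrects for length, NKX2-1 had 193 and 184, LMX1A 23.7 and 22.1 and FOXA2 12.9 and 10.4 at day 16. POU3F2 (log2 fold change 10.29 ± 0.34), SIM2 (log2 fold change 6.82 ± 0.19) and OTP (676 times higher, 95% counting interval 187 to 5589.6), factors of hypothalamic neurons, rose too, and SIM2 reached 297 and 356 CPM. DBX1, of the interzone between dorsal and ventral progenitors, had 337 and 356 CPM at day 16, against 0.206 and 0.169 CPM at day 0 (log2 fold change 10.84 ± 0.32). Of the genes of the cortex and its edge, NR2F1 (log2 fold change 9.17 ± 0.24), EMX2 (log2 fold change 6.98 ± 0.25) and DMRTA2 (log2 fold change 7.38 ± 0.43) rose. OTX1 rose (log2 fold change 7.31 ± 0.30), with 64.3 and 72.1 CPM at day 16. SIX3 (log2 fold change -1.20 ± 0.25) and LHX5 (log2 fold change -1.10 ± 0.18), of the anterior neural plate, fell.

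Genes of the boundary between midbrain and hindbrain were split, with 5 of 14 tested up (3 without day 0 replicate 2), 5 down and 4 not passing. WNT1 was switched on, as given above, and CNPY1, a target of FGF8 signalling, had 0.909 and 1.13 CPM at day 16 and no count at day 0 (at least 15.4-fold higher). FGF8 fell to 0.159 and 0.459 CPM, against 2.99 and 2.75 CPM at day 0 (log2 fold change -3.19 ± 0.50), in cells to which the protein was supplied. TAL2, of midbrain GABAergic precursors, had 0.136 and 0.167 CPM at day 16, against 88.0 and 85.2 CPM at day 0 (log2 fold change -9.13 ± 0.28), and PAX5 fell to 0 and 0.104 CPM, against 5.21 and 4.06 CPM (log2 fold change -6.35 ± 1.10). Of 18 HOX and hindbrain genes, which mark the hindbrain and spinal cord, only 10 were counted highly enough to be tested, of which 2 rose and 4 fell.

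Neuronal genes rose broadly. Of the neuronal cytoskeleton 14 of 18 tested members rose and 4 did not pass, with a median of 2.22. NEFL, a neurofilament, had 216 and 227 CPM at day 16, against 0.297 and 0.38 CPM at day 0 (log2 fold change 9.34 ± 0.32, adjusted p = 3.65e-11). DCX, a microtubule protein of migrating young neurons, had 303 and 270.1 CPM at day 16, against 8.30 and 8.47 CPM at day 0 (log2 fold change 5.10 ± 0.22). MAPT (log2 fold change 5.56 ± 0.28), STMN4 (log2 fold change 7.09 ± 0.35) and INA (log2 fold change 4.94 ± 0.19) rose by similar amounts, and MAP2 had 603 and 585 CPM at day 16, against 102 and 99.1 CPM at day 0 (log2 fold change 2.56 ± 0.16). TUBB2B, a tubulin with near-identical paralogues, and STMN1, a tubulin-binding protein, were among the genes that gained most TPM (log2 fold change 1.74 ± 0.15 and log2 fold change 1.06 ± 0.13). STMN1 missed the 2-fold minimum without day 16 replicate 2 (log2 fold change 0.93, adjusted p = 0.000187). Others in that group were TBCA, a tubulin folding cofactor (log2 fold change 1.52 ± 0.11), TPBG (log2 fold change 3.10 ± 0.23), GPC3, a heparan sulphate proteoglycan (log2 fold change 3.49 ± 0.14), ANXA1 (log2 fold change 3.69 ± 0.22), SAT1, which catabolises polyamines (log2 fold change 2.73 ± 0.16), and WSB1 (log2 fold change 1.98 ± 0.21).

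Synaptic, receptor and channel genes moved less uniformly. In the synapse list 15 of 26 tested members rose and 2 fell (1 without day 16 replicate 2). SYP, a synaptic vesicle protein, had 32.4 and 31.3 CPM at day 16, against 4.8 and 4.75 CPM at day 0 (log2 fold change 2.74 ± 0.15). VAMP2 (log2 fold change 3.10 ± 0.17), BSN (log2 fold change 3.03 ± 0.24) and PCLO (log2 fold change 3.07 ± 0.19), of vesicle fusion and the active zone, rose and SHANK1, of the postsynaptic density, fell (log2 fold change -2.53 ± 0.15). SYT1 (0.15) and DLG4 (0.24) did not pass. Of transmitter receptors 15 of 26 rose and 2 fell (1 without day 16 replicate 2 or either day 0 replicate), with the AMPA receptor subunit GRIA2 at 40.2 and 38.9 CPM at day 16, against 0.251 and 0.127 CPM at day 0 (log2 fold change 7.70 ± 0.27). CHRNA4, a nicotinic subunit, had 124 and 81.1 CPM at day 16, against 21.6 and 19.7 CPM at day 0 (log2 fold change 2.32 ± 0.22). Of ion channels 7 of 23 rose and 4 fell, where 18.0% of all genes tested rose and 14.4% fell. SCN3A, the sodium channel of fetal neurons, rose (log2 fold change 6.15 ± 0.24), while SCN1A (-0.98) and SCN8A (0.38) did not pass.

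Among genes of transmitter identity, 5 of 18 tested rose and 3 fell (1 without day 16 replicate 2). SLC17A6, the vesicular glutamate transporter of subcortical neurons, had 31.3 and 34.6 CPM at day 16, against 0 and 0.106 CPM at day 0 (log2 fold change 9.16 ± 0.38). TH, which catalyses the slowest step in making dopamine, had 16.3 and 15.0 CPM at day 16 and no count at day 0 (at least 237-fold higher, adjusted p = 1.71e-10). By TPM, day 16 PA cells had 14.2 and 14.6 of SLC17A6 and 19 and 17.2 of TH. The cell type label of the day 16 samples is midbrain dopaminergic neurons, and the defining markers of that cell were only partly present. NR4A2, which specifies dopaminergic neurons, had 22.9 and 21.4 CPM at day 16, against 5.85 and 6.59 CPM at day 0 (log2 fold change 1.83 ± 0.21) and PITX3 had 0.182 and 0.397 CPM at day 16 and no count at day 0. SLC18A2, the vesicular monoamine transporter, had no count at day 16, against 1.39 and 0.613 CPM at day 0. SLC6A3, the dopamine transporter, fell to 1.04 and 0.919 CPM, against 4.23 and 4.8 CPM (log2 fold change -2.20 ± 0.31), and DDC, the next enzyme after TH, had 0.568 and 1.04 CPM at day 16, against 0.183 and 0.549 CPM at day 0 and did not pass (log2 fold change 1.12 ± 0.55). Over the whole list 11 of 23 tested members rose and 5 fell. KCNJ6, a potassium channel of these neurons, rose (log2 fold change 3.64 ± 0.32), as did EBF1 (log2 fold change 5.12 ± 0.27) and EBF3 (log2 fold change 5.34 ± 0.25), whereas the receptors DRD2 (log2 fold change -2.33 ± 0.12) and RET (log2 fold change -2.50 ± 0.18) fell. GAD1, which makes GABA, had 1.45 and 1.40 CPM at day 16, against 0.960 and 1.04 CPM at day 0 and did not pass (0.51).

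Among peptide precursors 12 of 29 tested members rose and 4 fell. Over all genes tested 18.0% rose and 14.4% fell, so the share that fell was near that of all genes. Beside PMCH, NTS, the precursor of neurotensin, had 7.25 and 8.25 CPM and no count at day 0 (at least 117-fold higher), and so had ADCYAP1, the precursor of PACAP, with 6.93 and 6.68 CPM (at least 103-fold higher). SCG2 (945 times higher, 95% counting interval 323 to 4585), CHGB (log2 fold change 5.06 ± 0.32) and the processing enzyme PCSK1 (log2 fold change 6.84 ± 0.23), all of dense-core granules, rose. TAC3, the precursor of neurokinin B, did the reverse, with 4.97 and 6.10 CPM at day 16, against 411 and 429 CPM at day 0 (log2 fold change -6.24 ± 0.19, adjusted p = 1.05e-11).

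Within the hedgehog pathway the ligand rose, while the transcription factors GLI1 and GLI2 fell. SHH rose, as did its receptor and target PTCH1, with 275 and 209 CPM at day 16, against 84.6 and 86.5 CPM at day 0 (log2 fold change 1.5 ± 0.14), and the co-receptor BOC (log2 fold change 2.46 ± 0.17). GLI2, the main activator of the response, had 4.34 and 3.70 CPM at day 16, against 85.5 and 81.6 CPM at day 0 (log2 fold change -4.38 ± 0.26, adjusted p = 5.94e-09), and GLI1, a target and activator, fell (log2 fold change -1.63 ± 0.32), as did the co-receptor GAS1 (log2 fold change -2.48 ± 0.42). SMO (-0.23) and GLI3 (0.093) did not pass. In all 4 of 15 tested members rose and 3 fell.

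WNT ligands rose in number while several receptors fell. Of 21 ligands and R-spondins tested 11 rose and 5 fell (3 without replicate 1 of either day), and of 18 receptors 3 rose and 7 fell. WNT5A (log2 fold change 2.23 ± 0.18), WNT7A (log2 fold change 4.26 ± 0.23), WNT10B (log2 fold change 5.76 ± 0.33) and the potentiator RSPO2 (log2 fold change 5.34 ± 0.39) rose beside WNT1 and WNT8B. WNT8A, which acts in the early embryo, had no count at day 16, against 7.70 and 7.90 CPM (at least 119-fold lower). The receptor FZD5 had 9.88 and 8.12 CPM at day 16, against 370.4 and 360.1 CPM at day 0 (log2 fold change -5.34 ± 0.16). FZD7 (log2 fold change -2.36 ± 0.16), FZD8 (log2 fold change -2.53 ± 0.16), ROR1 (log2 fold change -3.09 ± 0.20) and ROR2 (log2 fold change -4.53 ± 0.17) fell as well. Among targets LEF1 rose (log2 fold change 3.39 ± 0.15) and AXIN2 had 57.1 and 52.6 CPM at day 16, against 31.2 and 35.2 CPM at day 0 and did not pass (log2 fold change 0.72 ± 0.13).

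FGF and BMP genes moved in both directions. FGF10 (log2 fold change 4.47 ± 0.36) and FGFBP3 (log2 fold change 6.39 ± 0.32), which releases FGFs from the matrix, rose. The receptors FGFR1 (log2 fold change -1.48 ± 0.15), FGFR2 (log2 fold change -1.32 ± 0.10) and FGFR4 (log2 fold change -4.30 ± 0.19) fell and FGFR3 rose (log2 fold change 1.05 ± 0.18). BMP4 (log2 fold change 2.23 ± 0.15), BMP7 (log2 fold change 2.15 ± 0.22) and the target ID2 (log2 fold change 3.20 ± 0.16) rose and FST, an activin antagonist, fell (log2 fold change -2.32 ± 0.16). On the NODAL side, NODAL itself had no count at day 16, against 1.76 and 2.26 CPM, and FOXH1, which carries its signal to DNA, had 0.795 and 0.877 CPM at day 16, against 85.4 and 86.5 CPM at day 0 (log2 fold change -6.68 ± 0.29). In retinoic acid metabolism 6 of 14 tested members fell and 1 rose (2 without day 0 replicate 2). CYP26A1, which degrades retinoic acid, had 0.840 and 1.04 CPM at day 16, against 507 and 513 CPM at day 0 (log2 fold change -9.07 ± 0.24, adjusted p = 4.54e-12), and RARG, a receptor, fell (log2 fold change -4.91 ± 0.30). The binding proteins crossed over: CRABP1 had 69.4 and 70.3 CPM at day 16, against 1.74 and 1.80 CPM at day 0 (log2 fold change 5.30 ± 0.23). CRABP2 had 21.7 and 25.3 CPM at day 16, against 292 and 290 CPM at day 0 (log2 fold change -3.63 ± 0.16).

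Of the axon guidance genes 19 of 44 tested rose and 7 fell. SLIT2, a repellent of the midline, had 554 and 527 CPM at day 16, against 7.47 and 8.68 CPM at day 0 (log2 fold change 6.06 ± 0.18, adjusted p = 1.09e-11). DCC, the receptor of netrin, had 252 and 217 CPM at day 16, against 3.59 and 2.70 CPM at day 0 (log2 fold change 6.22 ± 0.29). The ephrin receptor EPHA7 had 523 and 494 CPM at day 16, against 27.3 and 29.6 CPM at day 0 (log2 fold change 4.16 ± 0.17). SEMA3A, a repellent semaphorin, had 69.9 and 60.1 CPM and no count at day 0 (at least 986-fold higher), and SEMA3C (log2 fold change 4.04 ± 0.27) and SEMA3E (log2 fold change 6.36 ± 0.39) rose. The SLIT receptors ROBO1 (-0.75) and ROBO2 (-0.50) did not pass, and ROBO3 fell (log2 fold change -1.80 ± 0.24).

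The list of matrix genes, laminins and integrins was divided, with 7 of 37 tested members up and 11 down. Over all genes tested 18.0% rose and 14.4% fell, so the share that rose was near that of all genes. LAMB1, a laminin chain, had 19.4 and 15.1 CPM at day 16, against 364 and 353 CPM at day 0 (log2 fold change -4.38 ± 0.16). NID1, which links laminin to collagen, had 20.9 and 22.9 CPM at day 16, against 240.1 and 223 CPM at day 0 (log2 fold change -3.40 ± 0.36). The epithelial integrin ITGB4 had 3.57 and 3.51 CPM at day 16, against 106 and 109 CPM at day 0 (log2 fold change -4.92 ± 0.21). FN1, which encodes fibronectin, had 797 and 602 CPM at day 16, against 192 and 180 CPM at day 0 (log2 fold change 1.91 ± 0.22), and ITGA2 (log2 fold change 4.26 ± 0.20) and ITGB8 (log2 fold change 2.62 ± 0.19) rose. The collagen IV chains COL4A1 (0.082) and COL4A2 (0.42) did not pass.

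Among splicing and RNA-binding proteins 15 of 27 tested members rose and 3 fell. SRRM4, which promotes neuronal microexons, had 27.6 and 30.1 CPM at day 16, against 2.40 and 1.99 CPM at day 0 (log2 fold change 3.72 ± 0.19). CELF3 (log2 fold change 2.43 ± 0.15), ELAVL4 (log2 fold change 2.26 ± 0.13), NOVA1 (log2 fold change 1.98 ± 0.13) and MBNL2 (log2 fold change 3.07 ± 0.18) rose. PTBP2, the neural paralogue of the repressor PTBP1, had 259 and 245 CPM at day 16, against 114 and 108 CPM at day 0 (log2 fold change 1.19 ± 0.12). PTBP1 had 475 and 467 CPM at day 16, against 869 and 886 CPM at day 0 and did not pass (log2 fold change -0.90 ± 0.11). In the BAF chromatin remodelling complex, which swaps subunits when progenitors become neurons, the neuronal subunits ACTL6B (log2 fold change 2.98 ± 0.19) and DPF3 (log2 fold change 2.94 ± 0.24) rose and the stem cell subunit SMARCC1 fell (log2 fold change -1.34 ± 0.089), while 15 of 22 tested subunits did not pass.

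Most proliferation genes changed by less than 2-fold. Of 22 cell cycle genes tested 19 did not pass and 3 fell, and with no fold minimum 10 fell. The median was -0.43, and the summed level was 4386 CPM in both day 16 libraries, against 5477 and 5529.9 CPM at day 0. MKI67, a marker of cycling cells, had 709 and 639 CPM at day 16, against 667 and 629 CPM at day 0 (log2 fold change 0.057 ± 0.26, adjusted p = 0.878). TOP2A had 1144 and 1047 CPM at day 16, against 832 and 789 CPM at day 0 (log2 fold change 0.43 ± 0.32). CCNB1 (log2 fold change -1.21 ± 0.30), CCNE1 (log2 fold change -1.72 ± 0.18) and PLK1 (log2 fold change -1.11 ± 0.13) fell. Genes that restrain the cycle rose in 8 of 14 cases and did not pass in the rest. Among those that rose were RB1, with 62.2 and 59.9 CPM at day 16, against 10.2 and 10.6 CPM at day 0 (log2 fold change 2.55 ± 0.11), CDKN2C (log2 fold change 5.07 ± 0.55) and CDKN1A (log2 fold change 1.30 ± 0.24). CCND1, counted in the same list, promotes entry into the cycle and rose as well (log2 fold change 1.94 ± 0.10).

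In glycolysis and the response to low oxygen 4 of 27 tested entries rose, 1 fell and 22 did not pass. In cholesterol synthesis 15 of 16 did not pass. The shares over all genes tested were 18.0% for rises and 14.4% for falls. Without day 16 replicate 1 the glycolysis entries that fell were 4. Day 16 replicate 1 was higher than replicate 2 in many glycolysis genes: SLC2A3, a glucose transporter, had 2808 and 1602 CPM at day 16, against 1569.6 and 1591 CPM at day 0, and LDHA had 794 and 508 CPM at day 16, against 839 and 858 CPM at day 0. HK2, a hexokinase, rose (181 and 89.5 CPM at day 16, against 41.0 and 42.9 CPM at day 0, log2 fold change 1.69 ± 0.56). It did not pass without day 16 replicate 1 (log2 fold change 1.10, adjusted p = 0.181), day 0 replicate 1 (log2 fold change 1.66, adjusted p = 0.0872) or day 0 replicate 2 (log2 fold change 1.72, adjusted p = 0.0789). The part of this gap between replicates in other results was not tested. Of 21 genes of serine, one-carbon and amino acid metabolism and stress 4 rose and 5 fell. ATF5 (log2 fold change 3.96 ± 0.21) and DDIT3 (log2 fold change 2.90 ± 0.40), of the stress response to amino acid lack, rose, and CHAC1, of the same response, fell (log2 fold change -2.47 ± 0.33).

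The genes that lost most TPM included housekeeping names. PPIA had 2310.4 and 2322 TPM at day 16, against 4292 and 4447 TPM at day 0 (log2 fold change -1.08 ± 0.10), ACTB fell (log2 fold change -1.02 ± 0.12), and PTMA (log2 fold change -1.03 ± 0.10), ATP5A1 (log2 fold change -1.21 ± 0.10) and HMGA1 (log2 fold change -2.01 ± 0.091) did too. Several of these have processed copies in the genome with which reads can be shared, so their values are uncertain. With scaling by total counts PPIA (log2 fold change -0.98, adjusted p = 3.57e-07), ACTB (log2 fold change -0.92, adjusted p = 8.49e-06) and PTMA (log2 fold change -0.94, adjusted p = 7.76e-07) no longer passed. ACTB also missed the 2-fold minimum without day 0 replicate 2 (log2 fold change -0.97, adjusted p = 9.96e-05) or day 16 replicate 1 (log2 fold change -0.97, adjusted p = 0.000164), and PTMA without day 16 replicate 2 (log2 fold change -0.99, adjusted p = 4.76e-05). APOE, a lipid carrier, fell far more, with 11.8 and 15.3 CPM at day 16, against 833 and 870 CPM at day 0 (log2 fold change -5.97 ± 0.30, adjusted p = 9.09e-10), and so did the lectin LGALS1 (log2 fold change -2.37 ± 0.19).

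Imprinted genes are of interest in a line without a paternal genome, in which genes expressed only from the paternal copy would have no active copy. Of 16 tested genes of that kind 8 rose and 8 did not pass. In IVF cells 8 of the 16 rose and 2 fell, and the step was higher in PA cells for 3 and lower for 2. MAGEL2 had 120.4 and 106 CPM at day 16 and no count at day 0 (at least 1719-fold higher, adjusted p = 8.41e-12), and IVF cells had 117 and 133 CPM at day 16 and 110.5 and 90.9 CPM at day 0. PEG3 had 6.16 and 3.97 CPM at day 16 and no count at day 0 (at least 76.7-fold higher), while IVF cells had 463 and 433 CPM at day 16 and 156 and 132 CPM at day 0. At day 16 the MAGEL2 values of the lines overlapped, and those of PEG3 did not. NDN, the neighbour of MAGEL2, had no count in any of the 4 PA libraries. DLK1 rose (log2 fold change 3.53 ± 0.62) and IGF2 did not pass (log2 fold change 0.95 ± 0.16, 20.4 and 19.4 CPM at day 16). Of 15 genes expressed from the maternal copy 4 rose and 2 fell, with MEG3 at 249.7 and 196 CPM at day 16, against 51.5 and 53.2 CPM at day 0 (log2 fold change 2.09 ± 0.15).

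Markers of other cell types that a dish could hold moved unequally. Of mesoderm and endoderm markers 7 of 13 tested fell and the rest did not pass, with a summed level of 51.8 and 52.8 CPM at day 16, against 114 and 124 CPM at day 0. SOX17, GATA4, GATA6 and EOMES had no count at day 16. Trophectoderm markers summed to 8.43 and 8.43 CPM, against 122 and 126 CPM at day 0, with 4 of 10 lower and the rest not passing (1 rose without day 16 replicate 1 or day 0 replicate 2). Fibroblast and leptomeningeal markers summed to 467 and 403 CPM, against 529.8 and 554 CPM at day 0. In that list 5 of 15 rose and 5 fell. PDGFRB had 147 and 97.1 CPM at day 16, against 7.04 and 8.16 CPM at day 0 (log2 fold change 4.01 ± 0.28). COL1A2 had 80.5 and 72.3 CPM at day 16, against 10.7 and 11.9 CPM at day 0 (log2 fold change 2.76 ± 0.34). COL1A1 (log2 fold change -2.52 ± 0.40) and PDGFRA (log2 fold change -3.50 ± 0.39) fell and DCN had 0.227 and 0.418 CPM at day 16. Of neural crest and placode markers 4 of 14 rose and 3 fell, with SOX10 at 0 and 0.209 CPM at day 16, and of endothelial and blood markers 1 of 9 rose and 1 fell (it no longer passed without day 16 replicate 1 or either day 0 replicate), with CSF1R at 0 in all 4 libraries. Of ependyma and cilia genes 7 of 15 rose and 2 fell (1 without either day 16 replicate), with a summed level of 881 and 823 CPM at day 16, against 684 and 669 CPM at day 0. Of astrocyte and oligodendrocyte genes 6 of 13 rose and 3 fell, with a summed level of 505 and 508 CPM at day 16, against 153 and 156 CPM at day 0. Among these OLIG2 (41.3 and 38.6 CPM at day 16, against 0.548 and 0.803 CPM at day 0, log2 fold change 5.87 ± 0.37) and GJA1 (log2 fold change 3.60 ± 0.18) rose, both also known in neural progenitors. GFAP had 4.52 and 4.89 CPM at day 16, against 2.61 and 3.06 CPM at day 0 and did not pass. The part of such cells in the changes given here was not tested.

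The step of PA cells was set against that of IVF cells to see where it differed. At day 16 PA and IVF libraries correlated at r = 0.979 on average over 4 pairs. The difference of the steps passed in 423 genes with a higher value in PA cells (2.28% of the genes tested) and in 844 with a lower one (4.56%). Of 26 hypothalamic genes 10 had a higher and 2 a lower step in PA cells, and of 22 telencephalic genes 7 had a higher and 1 a lower one. In IVF cells 11 of the hypothalamic genes rose and 9 fell, and 7 of the telencephalic genes rose and 4 fell. A higher step can thus reflect a fall in IVF cells, and these counts do not separate day 16 from day 0 levels. The diencephalon and eye list went the other way, with 2 higher and 7 lower of 19, and of 21 floor plate genes 9 had a lower step in PA cells. Lists that are not regional differed too. Of 19 neural progenitor genes 9 had a higher and 2 a lower step in PA cells, and of 23 dopaminergic neuron genes 2 had a higher and 8 a lower one. With 1 line for each kind of embryo, the kind of embryo and the line cannot be told apart.

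**Figure D4:**
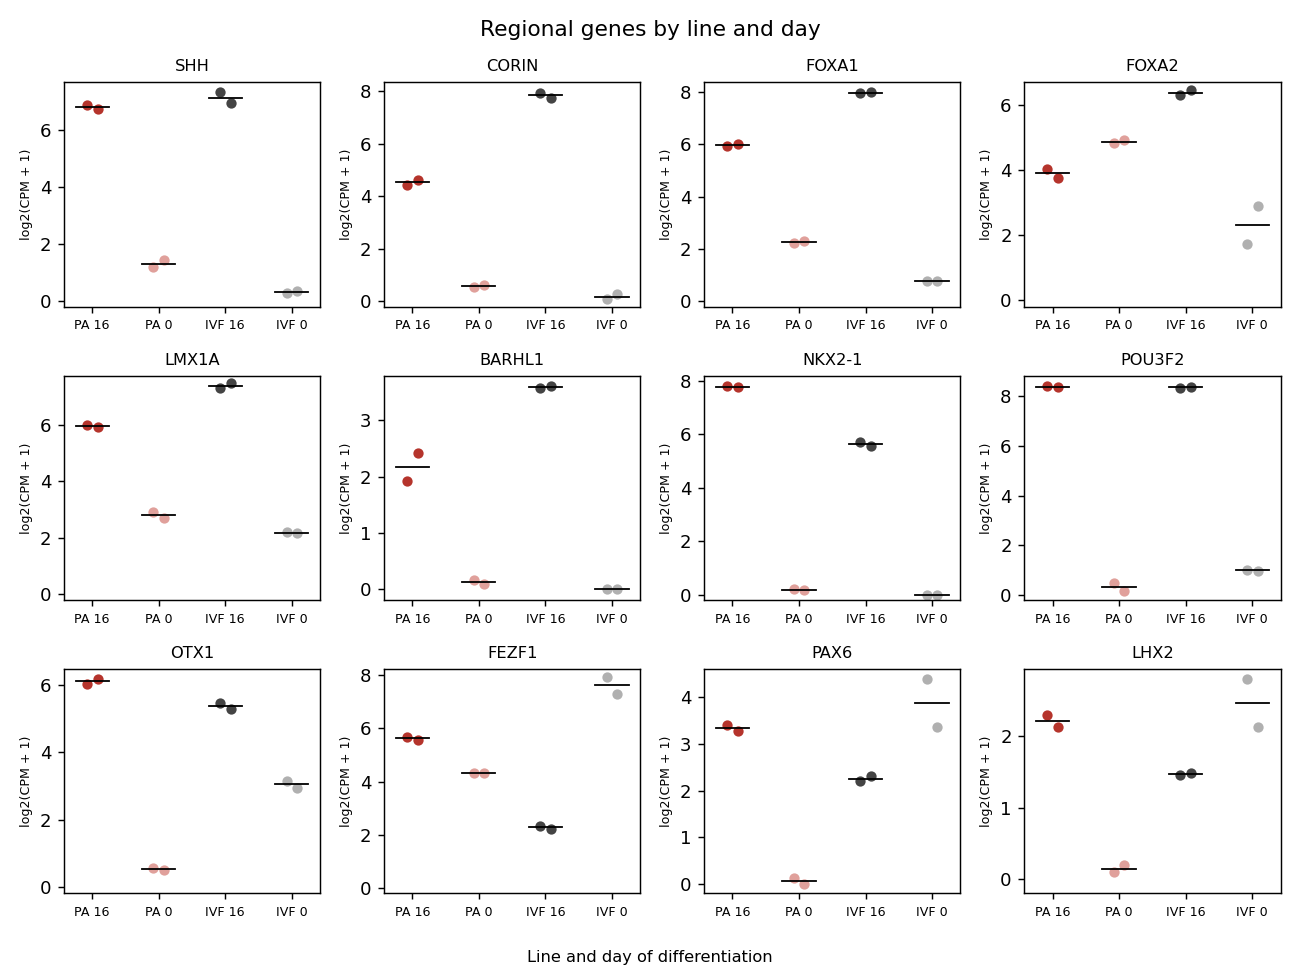
Levels of 12 regional genes (vertical axis, log2 of CPM + 1) in PA cells at day 16 and day 0 and in IVF cells at day 16 and day 0, in that order from left to right within each panel; points are single libraries and bars the mean of 2. CORIN, FOXA1, FOXA2 and LMX1A are higher in IVF than in PA cells at day 16, while FEZF1, PAX6 and LHX2 are higher in PA cells at day 16 and in IVF cells at day 0.

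FEZF1 and PAX6, both of the forebrain, rose in PA cells and fell in IVF cells. FEZF1, of the anterior forebrain, had 50.5 and 46.4 CPM at day 16 and 18.8 and 18.8 CPM at day 0 in PA cells, and 4.07 and 3.70 CPM at day 16 and 245 and 156 CPM at day 0 in IVF cells (difference of the steps 7.05 ± 0.40 log2 units, adjusted p = 1.99e-07). PAX6, a factor of dorsal and forebrain progenitors, had 9.56 and 8.66 CPM at day 16 and 0.0914 and 0 CPM at day 0 in PA cells, and 3.61 and 3.98 CPM at day 16 and 19.9 and 9.35 CPM at day 0 in IVF cells (9.55 ± 0.83, adjusted p = 9.41e-06). GPC3 had 512 and 502 CPM at day 16 and 45.7 and 44.8 CPM at day 0 in PA cells, and 28.3 and 27.3 CPM at day 16 and 32.5 and 27.2 CPM at day 0 in IVF cells (3.59 ± 0.18, adjusted p = 7.09e-08).

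Several floor plate genes had a lower step in PA cells. FOXA2 had 15.5 and 12.5 CPM at day 16 and 27.2 and 29.2 CPM at day 0 in PA cells, and 78.2 and 86.9 CPM at day 16 and 2.28 and 6.47 CPM at day 0 in IVF cells (-5.24 ± 0.47, adjusted p = 1.14e-05). CORIN (-5.27 ± 0.68), FOXA1 (-4.45 ± 0.24), SHH (-2.98 ± 0.38) and LMX1A (-2.23 ± 0.32) rose in both lines and had a smaller rise in PA cells. BARHL1, stained in the study, had 2.77 and 4.36 CPM in day 16 PA cells and 10.9 and 11.2 CPM in day 16 IVF cells, and its day 0 levels are not given here. Its difference of the steps passed narrowly (adjusted p = 0.0453) and did not pass without any 1 of 7 of the 8 libraries (adjusted p of 0.0732 to 0.162). Of 18 interferon response genes tested 6 had a lower step in PA cells, among them ISG15 (-3.35 ± 0.51) and IFI6 (-4.78 ± 0.50). TFAP2C, of early lineages, fell in PA cells (log2 fold change -5.88 ± 0.56) and was low in IVF cells, at 0.382 and 0.468 CPM at day 16 and 0.543 and 0.528 CPM at day 0 (difference of the steps -5.55 ± 0.82, adjusted p = 0.000613).

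Some step differences rested on genes with no count in a group, whose fitted size is set by the prior count. UNC13C, of synaptic vesicle priming, had 33.5 and 35.9 CPM at day 16 and 18.5 and 18.2 CPM at day 0 in PA cells, and 2.55 and 1.38 CPM at day 16 and no count at day 0 in IVF cells. KCNA6, a potassium channel, had 6.41 and 4.01 CPM at day 16 and 11.2 and 11.4 CPM at day 0 in PA cells, and 0.318 and 0.596 CPM at day 16 and no count at day 0 in IVF cells. RASSF9 (0.568 and 0.355 CPM in day 16 PA cells, 6.96 and 9.64 CPM in day 16 IVF cells), NTNG2 (4.32 and 4.63 and 7.30 and 6.54), C1QL4 (4.36 and 4.59 and 6.24 and 6.34) and DMBX1 (1.86 and 3.42 and 6.89 and 4.92) had no count in day 0 IVF cells. Their step differences rest also on the day 0 levels of PA cells, which are not given here, and not on day 16 alone. The step difference of DMBX1 (adjusted p = 0.0428) did not pass without any 1 of 6 of the 8 libraries (adjusted p of 0.0649 to 0.201). That of NTNG2 (adjusted p = 0.0153) did not pass without either day 0 IVF library (adjusted p = 0.067 and 0.0702) or without day 0 PA replicate 2 (adjusted p = 0.0645). P2RX2 and NPR1 fell in both lines and had no count in day 16 IVF cells. On the side of PA cells, SEMA3A, SLITRK3, FAM181A and RALYL had no count at day 0, where IVF cells had 3.37 and 1.69 CPM of SEMA3A, 0.707 and 0.845 CPM of SLITRK3, 0.353 and 0.211 CPM of FAM181A and 4.62 and 5.10 CPM of RALYL.

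Of the 4 days sampled, some genes switched on at day 16 were highest then and others later. Cells of day 28 and day 45 had been replated from day 16 on poly-L-ornithine, laminin and fibronectin. Their medium held BDNF, GDNF, ascorbic acid, db-cAMP and DAPT, and no FGF8. The later days therefore differ from day 16 in medium and coating as well as in time. WNT8B had 59.7 and 48.3 CPM at day 28 and 3.60 and 0.876 CPM at day 45 in PA cells, and DBX1 had 47.8 and 43.4 CPM at day 28 and 0.579 and 0.418 CPM at day 45. TH moved the other way, with 52.7 and 59.9 CPM at day 28 and 41.9 and 43.6 CPM at day 45, and CORIN had 155 and 131 CPM at day 28 and 441 and 274 CPM at day 45. POU5F1, VRTN and PRDM14 had no count on either later day.

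Changes were spread over all chromosomes. Among genes above 5 CPM the median log2 fold change ran from -0.17 on chromosome 12 (654 genes) to 0.15 on the X chromosome (409 genes). The X median of IVF cells was -0.047, and the difference between the lines was not tested. Scaling by total counts raised the medians over all tested genes to between -0.055 on chromosome 6 and 0.39 on chromosome 11, against -0.15 and 0.29 with TMM. By kind of gene, 24.1% of 2275 long non-coding RNAs rose and 8.79% fell, against 17.2% and 15.4% of 15881 protein-coding genes. Genes that rose spanned a median of 34109 bases of the genome and those that fell 19062 bases, against 23666 bases over all genes tested.

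**Figure D5:**
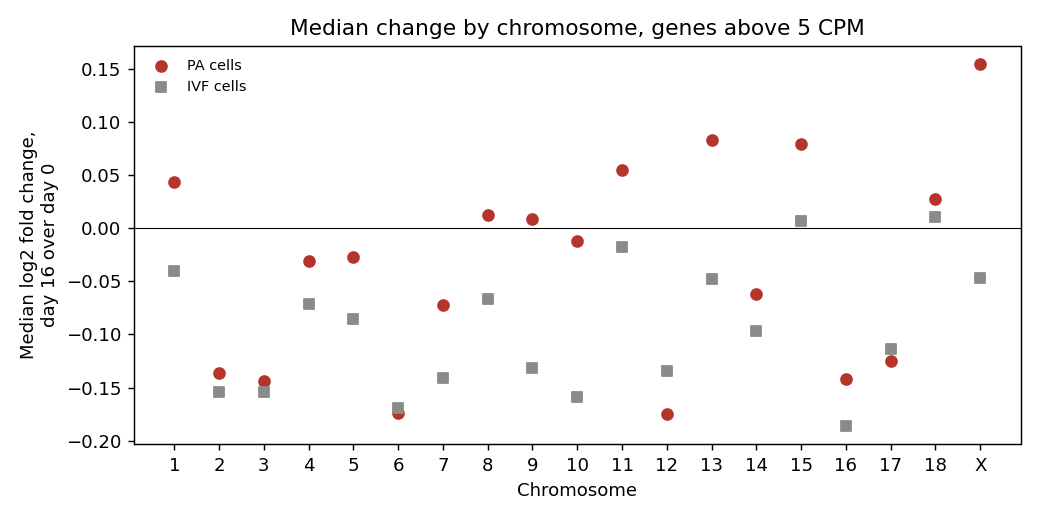
Median log2 fold change of genes above 5 CPM on each chromosome (horizontal axis), day 16 over day 0, in PA cells (red) and IVF cells (grey). All medians lie between -0.19 and 0.16, and the X chromosome has the highest value of PA cells.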

How the data were processed

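Paired-end reads of poly-A RNA came from an Illumina NovaSeq. The authors trimmed the reads with Trimmomatic (version 0.38), aligned them to Sscrofa11.1 with HISAT2 (version 2.1.0), sorted them with SAMtools (version 1.9) and assembled and quantified transcripts of the RefSeq annotation with StringTie (version 2.1.3b). They deposited 1 table of 28232 genes with the read count of each gene in each of the 16 libraries, not normalised, beside TPM and FPKM. The deposited TPM and FPKM are the authors' own values scaled for transcript length and depth; TPM was used for levels between genes and FPKM was not used. Whether counting used strand is not given in the sources used here, so overlapping and antisense genes cannot be told apart. Rows without a gene symbol were 24 and held at most 0.189% of the counts.

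Genes were kept with filterByExpr over the 8 groups and tested in edgeR 4.0.16 under R 4.3.3 with TMM scaling and the quasi-likelihood test over the 16 libraries together (8 residual degrees of freedom) and without a replicate block. The calling rule was a Benjamini-Hochberg adjusted p below 0.05 and at least 2-fold. The step of PA cells minus that of IVF cells was tested as a contrast in the same fit. Deposited counts of 45736827 to 52165867 per PA library put 3 counts, the floor used for a group at 0, at 0.0626 to 0.0686 CPM, and intervals of 95% and floors cover counting error only. Replicates of PA cells differed by more than counting error, with a median chi-square per gene of 3.79 at day 16 and 1.73 at day 0, against 0.455 from counting alone. The test was run on simulated counts, with each gene at its mean over all 16 libraries and few genes changed in day 16 PA cells. It called 34.3% of 67 genes changed 2-fold (the minimum of the rule itself), 94.0% of 67 changed 4-fold and 98.5% of 66 changed 8-fold. There were 4 false calls among 17962 genes. Many more genes, 6005, were called in the data, so these rates may not hold there.

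Named genes were, per direction, up to 15 called genes with the largest fold change and up to 10 with the largest TPM difference, among those with a gene symbol other than a LOC number, 5 CPM or more on the higher day and no overlap between the days, then members of the gene lists, up to 10 genes per direction for the difference of the steps by the same filters, and genes the study stained or measured by PCR. Some genes that the rule names, and some list members, are not reported here by name, though list counts include them. The members and lists were chosen with earlier results of these data known. Where a symbol has more than 1 locus, both are counted in the list. Promoter windows were read from the RefSeq genome of the same build. Alternatives were other scalings and filters, calls on adjusted p alone, a fit restricted to the groups compared, a block for the replicate number, DESeq2 1.42.0 and leaving out each library in turn, where the lone library left in a group was assumed to vary like the other groups.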

Additional observations from a re-analysis of the deposited data

Results flagged for a closer look

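The change between day 16 and day 0 differed between PA and IVF cells in 423 genes with a higher value in PA cells and in 844 with a lower one, by the test of the difference itself in the edgeR fit. Groups of 2 libraries were too small to look for a library far from the others.

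Among genes counted in every group, the difference of the steps in log2 units was 9.55 for PAX6, 7.05 for FEZF1 and 3.59 for GPC3, all higher in PA cells. It was -8.27 for GATA3, -5.55 for TFAP2C, -5.27 for CORIN, -5.24 for FOXA2, -4.78 for IFI6, -4.45 for FOXA1, -3.35 for ISG15, -2.98 for SHH and -2.23 for LMX1A, all lower in PA cells. GATA3, a factor of trophectoderm and of some neurons, had 0.363 and 0.647 CPM at day 16 and 1.87 and 1.75 CPM at day 0 in PA cells, and 15.0 and 11.2 CPM at day 16 and 0.299 and 0 CPM at day 0 in IVF cells.

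For genes without a count in at least 1 group the fitted size is set by the prior count, so the adjusted p is given alone. A higher step in PA cells passed for MAGEL2 (adjusted p = 1.24e-09), SEMA3A (adjusted p = 4e-06), PEG3 (adjusted p = 9.98e-05), RALYL (adjusted p = 0.000221), SLITRK3 (adjusted p = 0.000481), FAM181A (adjusted p = 0.00257), P2RX2 (adjusted p = 0.00289) and NPR1 (adjusted p = 0.00294). A lower step in PA cells passed for RASSF9 (adjusted p = 6.62e-05), UNC13C (adjusted p = 0.000266), KCNA6 (adjusted p = 0.000369), C1QL4 (adjusted p = 0.00156), SYNE4 (adjusted p = 0.0107), NTNG2 (adjusted p = 0.0153), DMBX1 (adjusted p = 0.0428) and BARHL1 (adjusted p = 0.0453). SYNE4, of the nuclear envelope of epithelia, had no count in day 16 PA cells and 4.59 and 6.17 CPM at day 0, against 0.191 and 0.0852 CPM at day 16 and 1.82 and 1.03 CPM at day 0 in IVF cells, and did not pass without day 16 IVF replicate 1 (adjusted p = 0.0738). BARHL1, DMBX1 and NTNG2 did not pass either without some of the libraries, as given with their levels.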

How the results depend on the processing

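Scalings, filters, the set of libraries fitted and DESeq2 (3315 genes rose and 2584 fell) left the counts of calls over all genes within 1.5 times of those given, as did the criterion of the study in DESeq2 (2611 rose and 2014 fell), which drops genes with a 0 in any library. Counts of list members moved more: of 1512 values 99 moved by over 1.5 times, 27 of them with no fold minimum and 26 under the criterion of the study. Under that criterion 7 pluripotency genes fell, against 21, and 10 epithelial genes, against 20, while 5 proneural genes rose, against 14, 7 hypothalamic genes, against 16, and 10 floor plate genes, against 18. With a minimum of 1 CPM in 2 libraries 1 HOX or hindbrain gene fell, against 4, and without a filter or in DESeq2 8 fibroblast genes rose, against 5. With no fold minimum 5621 genes rose and 5428 fell, and 812 had a higher step in PA cells. With a minimum of 1 CPM on the other day, 84 genes were without a count at day 0 only and 80 at day 16 only. Leaving out 1 library gave 3083 to 3177 genes that rose, 2310 to 2558 that fell, 295 to 350 with a higher step in PA cells and 642 to 718 with a lower one. EN1, at the detection limit, had a log2 fold change of 0.73, which ran from -4.66 without PA day 16 replicate 1 to 5.36 without PA day 0 replicate 2, and never passed. Of 276 genes named, 9 lost the call under some alternative that tested them and 17 gained one. For the difference of the steps 4 of 28 genes lost it in the same way. Genes that an alternative did not test were left out of these counts. Those without a count in a group, such as TH, WNT8B and VRTN, were not tested under the criterion of the study. KCNA6 fell in PA cells by less than 2-fold without day 16 replicate 2 (log2 fold change -0.82), GATA6 did not pass without any 1 of the 4 PA libraries (adjusted p of 0.071 to 0.132) or in DESeq2 (adjusted p = 0.0753), and SOX17 did not pass in DESeq2 (adjusted p = 0.193). The causes were not tested.

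The labels do not say whether the replicate numbers pair the libraries. The deviations of replicates 1 of PA day 16 and day 0 correlated at r = 0.0525. Between the 8 groups such correlations ran from -0.193 to 0.279. A value of this size cannot show or exclude pairing, since the origin of the replicates is unknown. With the replicate number as a block 3242 genes rose and 2549 fell, 399 had a higher step in PA cells and 792 a lower one, and BARHL1 and DMBX1 did not pass (adjusted p = 0.0756 and 0.0713).

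With 2 libraries per group of unstated origin, genes simulated at exactly 2-fold, the minimum of the calling rule, were called in 34.3% of cases. Few other genes were changed in that simulation, unlike in the data. A gene at 0 in 1 PA library is limited to 0.0626 to 0.0686 CPM by counting.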
